A study of Homo sapiens with 17 samples.

Results

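The 6 hairpins described here carry the names mir-7641 (copies 1 and 2) and mir-6724 (copies 1 to 4). They were chosen by name alone, as all rows of the deposited tables that begin with either name, and they make up 6 of the 1282 hairpins listed. They were grouped as hairpins that overlap ribosomal RNA. Both mir-7641 hairpins overlap an annotated 5S rRNA pseudogene, mir-7641-1 in part. By position mir-6724 does not overlap ribosomal RNA: 3 of its 4 copies lie upstream of a 45S pre-rRNA gene, outside it. Its likeness in sequence to 45S pre-rRNA was not examined. The names were chosen with earlier results of these data known, among them the fall of mir-6724 in the wild-type rescue against the mock rescue. WT against mock, and mir-6724 in every comparison with the mock libraries, are therefore given as descriptions without a test. The adjusted p-values given for the other comparisons belong to hairpins chosen in the same way, so they are not independent of that choice.

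Small RNA was sequenced from HCT116, a human colon carcinoma cell line. Within the Microprocessor, DGCR8 binds the primary microRNA that the nuclease DROSHA cuts, and the cells named dCTT carry a CRISPR-Cas9 deletion of the CTT domain of DGCR8, described by the submitters as a functional knockout. There was 1 library of the parental strain and 1 of dCTT cells, and 5 groups of 3 rescue libraries in which dCTT cells received a mock rescue, WT DGCR8, C352A DGCR8, P351A DGCR8, or P351A DGCR8 with the agent the labels call ALA. All 15 rescue libraries therefore come from cells that carry the deletion, the number of clones is not given, and nothing in the labels says whether replicates were separate cultures, so a p-value here covers no more than library-to-library spread, which may be technical.

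Canonical primary microRNAs are cut by the Microprocessor in the nucleus and then by DICER in the cytoplasm. 5S rRNA is a short RNA of the large ribosomal subunit that RNA polymerase III transcribes from a gene cluster of its own, while 45S pre-rRNA is the RNA polymerase I transcript from which the other ribosomal RNAs of the cytoplasm are cut. Neither is a known product of the Microprocessor, and fragments of abundant structural RNAs are commonly found in small RNA libraries, where they can be assigned to a hairpin of the same sequence.

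The sequence of a hairpin sets which reads can be told apart, because the libraries were cut from a gel at 17 to 30 nucleotides. Among the GENCODE 29 transcripts (GRCh38), 290 outside the members share a window of 17 bases with mir-7641-2, and 286 of these are annotated as ribosomal RNAs or their pseudogenes. For mir-7641-1 the count was 269 of 273. The 2 mir-7641 hairpins, 61 bases (copy 1) and 53 bases (copy 2) long, also share 19 windows with each other, of 45 and 37. The deposited tables do not hold the reads, so which copy of a shared sequence gave a read is uncertain for both hairpins.

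The mir-6724 sequences are shown because the 4 copies cannot be told apart by them. RefSeq (GRCh38.p14) lists a mature sequence for 2 of the 6 members, copies 2 and 4 of mir-6724; the seed, bases 2 to 8, is in capitals, and in the hairpin the capitals mark the mature sequence.
miR-6724-5p: cUGGGCCCgcggcgggcgugggg
mir-6724-2: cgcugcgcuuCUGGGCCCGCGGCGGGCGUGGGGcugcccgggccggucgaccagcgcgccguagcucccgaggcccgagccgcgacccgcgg
The mature sequence is 23 bases long and takes up bases 11 to 33 of the hairpin. Its seed was shared with 1 other entry among 2370 mature miRNAs in the RefSeq table, hsa-miR-6773-5p. Of the 76 windows of 17 bases in the hairpin, 2 occur in other GENCODE transcripts, none of them annotated as ribosomal. The ribosomal RNAs searched there were the 5S and 5.8S RNAs and their pseudogenes, not the 18S, 28S or 45S RNA. All 4 copies have the same hairpin sequence and held the same number of reads in 17 of 17 libraries, so they are 1 signal printed 4 times. The 6 members thus hold 3 distinct signals.

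The mir-7641 loci overlap 5S rRNA pseudogenes on chromosomes 11 and 14. MIR7641-1 is annotated at chr11:104252591-104252651 on the plus strand of GRCh38, and 25 of its 61 bases lie in the 5S pseudogene RNA5SP348 of RefSeq, while no GENCODE gene overlaps it. MIR7641-2 lies at chr14:75604209-75604261 on the plus strand, in the exon of the 5S pseudogene RNA5SP387, within an intron of FLVCR2, a gene of the FLVCR transporter family. The mir-6724 copies lie on the plus strand of chromosome 21. MIR6724-1 (chr21:8205315-8205406) ends 582 bases before the start of the 45S pre-rRNA gene RNA45SN2, in an intron of the lincRNA FP671120.1. MIR6724-3 (chr21:8388362-8388453) lies 582 bases before RNA45SN3 and MIR6724-4 (chr21:8432530-8432621) 601 bases before RNA45SN1. MIR6724-2 (chr21:8249505-8249596) has no annotated 45S start nearby.

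The predicted folds of the 2 names also differed (ViennaRNA minimum free energy, hairpin sequences from GENCODE). Both mir-7641 hairpins formed 18 base pairs at a free energy of -18.1 kcal per mol, and 5 of the 330 other hairpins tested had fewer pairs. They are also short, against a median length of 84 bases in the others. Per base the free energy was -0.297 for mir-7641-1 and -0.342 for mir-7641-2, against a median of -0.461. The mir-6724 hairpin formed 31 pairs, equal to the median of the other hairpins, at -48.6 kcal per mol. Its GC content of 83.7% was exceeded in 3 of the 330 others. A predicted fold does not show that the RNA takes it.

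Summed over all hairpins, the rescue libraries held from 146023 reads (a mock library) to 2175294 (a P351A library), and the parental and dCTT libraries 5122793 and 168798. Copies with the same values each enter these sums in full, so a shared read may be counted more than once. Shares of reads and equal library totals rest on these sums. Values are reads on the scale set by the authors, called scaled reads below, and they compare a hairpin between libraries. In bulk RNA, fewer cells holding an RNA and less of it per cell cannot be told apart. Of the colon epithelial microRNA names looked up, 8 of 8 had reads, and mir-200b, mir-200c, mir-141 and mir-429 had a median of at least 100 scaled reads. Of 11 names typical of other cells, 9 had reads and 2 reached that level, mir-126 and mir-9. The P351A and P351A + ALA libraries stood apart from the other rescue libraries as a set: mir-373, a microRNA of the embryonic mir-371 to mir-373 cluster, was listed at 0 in all 6 of them and at 1038 to 5176 scaled reads in the other 9. A difference of P351A, with or without ALA, from mock, WT or C352A therefore cannot be told apart from a difference between these sets of libraries. P351A + ALA against P351A lies within the set that mir-373 marks. The labels do not say whether the libraries of that set were handled together.

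Across the rescue libraries the hairpins followed 3 different patterns, shown in the plot of levels by group. For mir-7641-2 the mock libraries held 215, 289.7 and 155.4 scaled reads, the WT libraries 137.4, 187.8 and 189.8, and the C352A libraries 114.6, 124.3 and 139.2. The P351A libraries held 44.0, 40.5 and 33.2, and the P351A + ALA libraries 177.0, 244.6 and 222.8. P351A was thus the lowest group, below every other library, and P351A + ALA overlapped mock and WT. In order of the group means, mock (220 ± 67.3, SD, n = 3), P351A + ALA (215 ± 34.5), WT (172 ± 29.7) and C352A (126 ± 12.4) each overlapped the next, and C352A did not overlap P351A (39.2 ± 5.52), as was so for 66.4% of all hairpins tested.

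For mir-7641-1 the mock libraries held 46.0, 32.2 and 45.1 scaled reads, WT 38.7, 36.2 and 35.7, and C352A 20.3, 17.8 and 33.8. P351A held 6.42, 4.05 and 4.39, and P351A + ALA 11.8, 12.6 and 13.1. Here P351A was again the lowest and P351A + ALA the next, but P351A + ALA was below every mock, WT and C352A library. In the order of the means, mock overlapped WT and the other neighbours did not overlap. Of all hairpins tested, 66.7% did not overlap between WT and C352A, 73.5% between C352A and P351A + ALA, 41.4% between WT and P351A + ALA and 70.2% between P351A + ALA and P351A. These values rest on few reads: 8 in C352A replicate 2, 10 in mock library b, 9 to 14 in each P351A library and 11 to 17 in each P351A + ALA library.

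For each mir-6724 copy, mock libraries b and c held 743.7 and 629.2 scaled reads, and mock library a held less, 1.20 times the highest value of any other group. WT libraries held 170.8, 292.9 and 274.0, and C352A libraries 154.8, 281.8 and 279.9. P351A held 265.8, 263.3 and 212.3, and P351A + ALA 207.0, 205.6 and 272.8. Mock lay above every other library, and the other 4 groups overlapped one another, with means of 228.5 ± 38.4 (P351A + ALA) to 247.1 ± 30.2 (P351A) against 574.9 ± 201 in mock (SD, n = 3 in each group). Such a lack of overlap with mock was common among the hairpins tested, 66.7% in WT, 41.4% in C352A, 65.8% in P351A and 56.8% in P351A + ALA. In mock, WT and C352A the library with the most summed reads also had the lowest mir-6724 value. In P351A replicate 2 had the most reads and replicate 3 the lowest value. With ALA, replicate 3 had the most reads and replicate 2 the lowest value. The part of depth in these values was not tested.

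**Figure D1:**
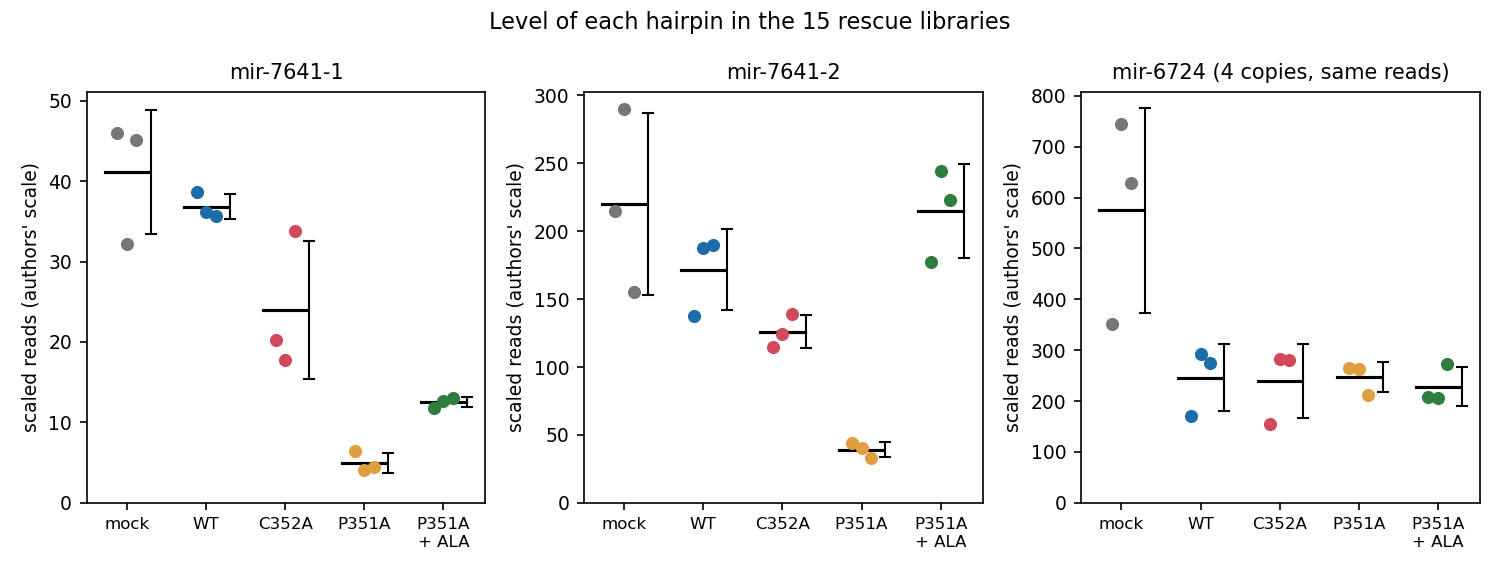
Scaled reads (linear axis from 0) of mir-7641-1, mir-7641-2 and mir-6724 in the 5 rescue groups; points are libraries, lines are means and bars are SD (n = 3). P351A is the lowest group for both mir-7641 hairpins, at 39.2 scaled reads for mir-7641-2, and mock is the highest for mir-6724, at 574.9.

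Both mir-7641 hairpins were higher in P351A cells given ALA than in P351A cells without it, and mir-6724 was not called. The question of this comparison is whether ALA alters small RNA levels in the P351A rescue. The mean of mir-7641-2 was 5.48-fold higher with ALA, a log2 fold change of 2.42 ± 0.29 (SE) on the log2(scaled reads + 1) scale (limma, Benjamini-Hochberg adjusted p = 6.86e-06, n = 3 in each group). All 3 P351A + ALA libraries exceeded all 3 P351A libraries. The mean of mir-7641-1 was 2.52-fold higher, a log2 fold change of 1.20 ± 0.33 (limma, adjusted p = 0.00648), again with no overlap. The change of mir-6724 was -0.12 ± 0.35 with a 95% interval of -0.86 to 0.62 (limma, adjusted p = 0.817), and the libraries overlapped.

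By count, 2 of the 6 members rose with ALA, where 44.6% of the 336 hairpins tested rose and their median log2 fold change was 0.81. Over all hairpins, 150 rose and 10 fell on the authors' scale, against 55 and 121 under edgeR with TMM. A hairpin whose libraries did not overlap was also common in this comparison, 70.2% of those tested. Another scaling moves all 3 signals by about the same amount, and with it which of them are called. The rise of mir-7641-2 stayed called in all 17 alternatives run, between 1.26 and 2.55. The rise of mir-7641-1 was not called at equal library totals (0.51, limma adjusted p = 0.271), with the median hairpin set to 0 in each library (0.06, limma adjusted p = 0.895), or with the TMM and DESeq2 size factors. The mir-6724 change, uncalled on the authors' scale, became a called fall of -1.26 under median centring, of -1.28 under edgeR with TMM and of -0.96 under DESeq2.

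**Figure D2:**
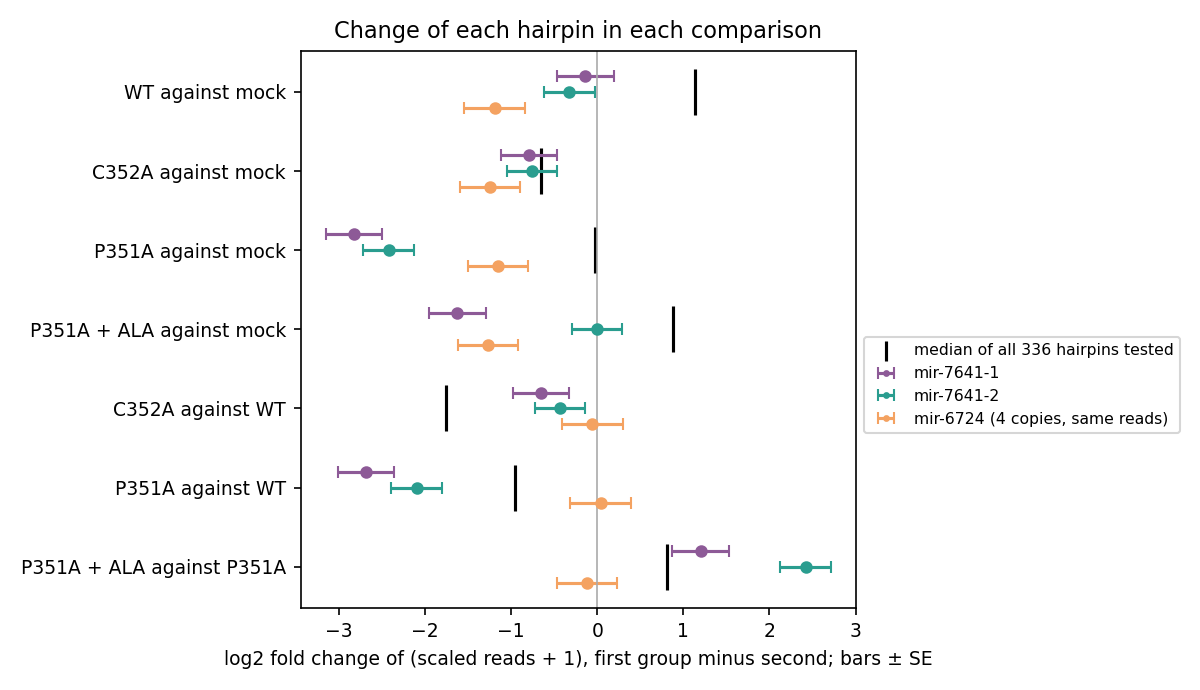
Log2 fold change of (scaled reads + 1), first group minus second, for mir-7641-1, mir-7641-2 and mir-6724 in each comparison; bars are SE and black ticks the median of all 336 hairpins tested. With ALA, mir-7641-2 lies at 2.42, to the right of the median of 0.81, and mir-6724 at -0.12, to its left; WT against mock, and mir-6724 against mock, are shown as descriptions.

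P351A cells held less of both mir-7641 hairpins than WT cells and than mock cells. Against WT, the log2 fold change of mir-7641-1 was -2.69 ± 0.33 (limma, adjusted p = 3.23e-06) and that of mir-7641-2 was -2.10 ± 0.29 (limma, adjusted p = 1.43e-05), with means 7.44-fold and 4.38-fold lower and no overlap between the libraries. The change of mir-6724 was 0.04 ± 0.35, with a 95% interval of -0.70 to 0.78 (limma, adjusted p = 0.930). So 2 of 6 members fell and did not overlap, where 64.9% of all hairpins tested did not overlap, 51.2% fell, and the median log2 fold change was -0.95. The fall of mir-7641-2 was -0.71 and not called under edgeR with TMM (adjusted p = 0.0833), while mir-6724 was called higher there, at 1.40, and under median centring, at 1.04.

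Against mock, both mir-7641 hairpins fell in P351A, where 25.9% of all hairpins tested fell and the median log2 fold change was -0.03. mir-7641-1 fell by 2.83 on the log2 scale (SE 0.33, limma adjusted p = 3.21e-06) and mir-7641-2 fell by 2.42 (SE 0.29, limma adjusted p = 5.75e-06), and both falls stayed called in every alternative run. The log2 fold change of mir-6724 was -1.15 ± 0.35, as a description. The comparisons against mock share the 3 mock libraries, so they are not independent of each other, and P351A against WT and P351A + ALA against P351A share the P351A libraries.

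In P351A + ALA cells against mock, mir-7641-1 was lower while mir-7641-2 was not called on the authors' scale. The log2 fold change of mir-7641-1 was -1.62 ± 0.33 (limma, adjusted p = 0.000551). That of mir-7641-2 was -0.00 ± 0.29, with a 95% interval of -0.62 to 0.62 (limma, adjusted p = 0.998), but it was a called fall under equal totals (-1.47), median centring (-0.85), edgeR with TMM (-0.97) and DESeq2 (-0.89). Of all hairpins tested, 8.93% fell, and the median log2 fold change was 0.87. The log2 fold change of mir-6724 was -1.27 ± 0.35, as a description.

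For WT against mock, as a description, the log2 fold change was -1.19 ± 0.35 for mir-6724, -0.33 ± 0.29 for mir-7641-2 and -0.14 ± 0.33 for mir-7641-1. The median of all hairpins was 1.13, so all 3 signals lay below it. At equal library totals the values were -1.77 for mir-7641-2 and -1.55 for mir-7641-1, and the median of all hairpins was -0.27.

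Between C352A and mock neither mir-7641 hairpin was called, where 14.3% of all hairpins tested fell and the median was -0.66. The log2 fold change was -0.79 ± 0.33 for mir-7641-1 (95% interval -1.48 to -0.10, limma adjusted p = 0.0895) and -0.76 ± 0.29 for mir-7641-2 (95% interval -1.38 to -0.14, limma adjusted p = 0.0719). Both had an unadjusted p under 0.05, and neither was called by edgeR or DESeq2. The log2 fold change of mir-6724 was -1.25 ± 0.35, as a description.

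No member was called between C352A and WT by limma on the authors' scale, where 65.5% of all hairpins tested were called lower and their median was -1.76. At an unadjusted p under 0.05 the count was also 0, as it was by edgeR on the authors' scale. The log2 fold changes were -0.65 for mir-7641-1 (95% interval -1.34 to 0.04), -0.43 for mir-7641-2 (-1.05 to 0.19) and -0.06 for mir-6724 (-0.79 to 0.68). The direction depended on the scaling: 6 of 6 members were called higher in C352A at equal library totals, by edgeR with TMM and by DESeq2, with mir-7641-2 at 1.20, 1.36 and 1.12. Under the same settings 96, 111 and 96 of the 336 hairpins tested were called higher and 99, 73 and 96 lower. Without C352A replicate 3, mir-7641-1 was called lower (-0.92, limma adjusted p = 0.0299).

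**Figure D3:**
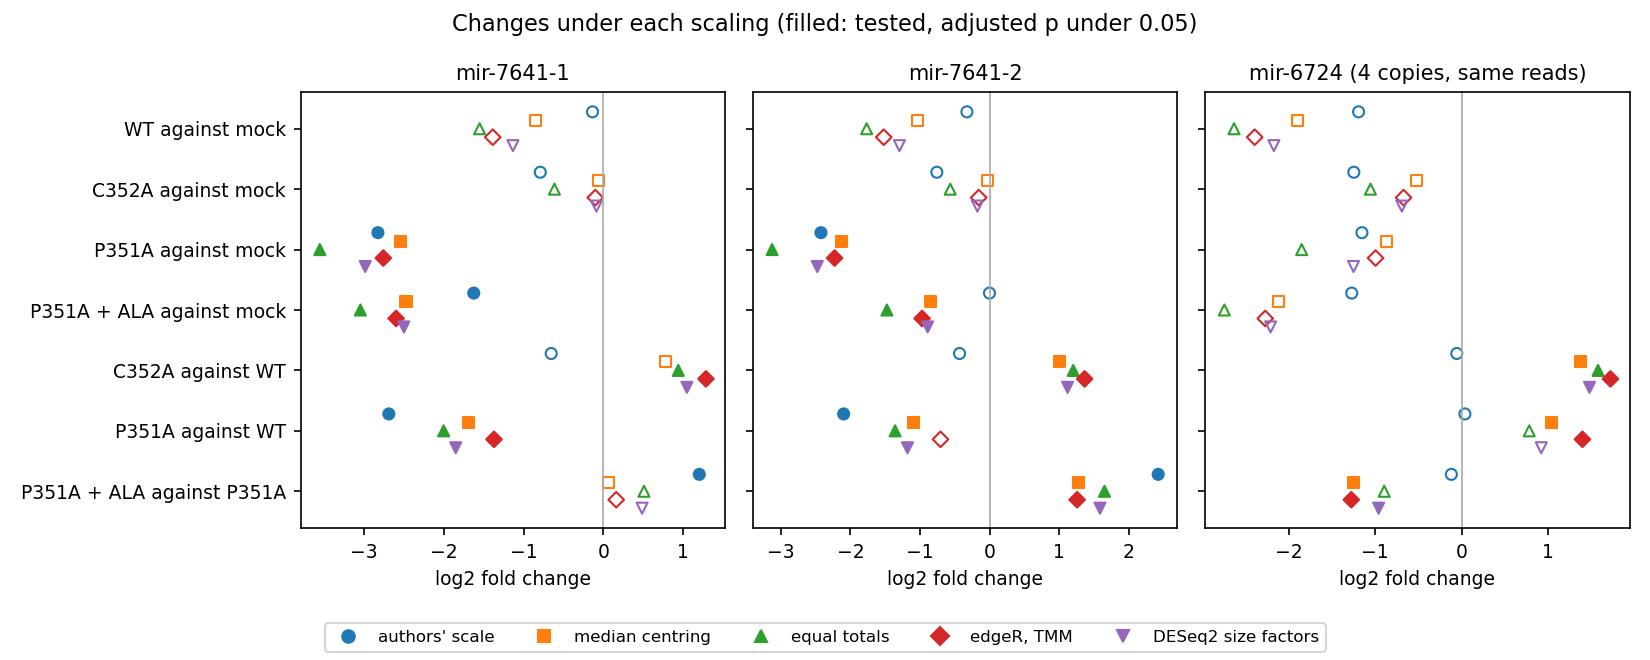
Log2 fold change of mir-7641-1, mir-7641-2 and mir-6724 in each comparison (first group minus second) under 5 scalings; filled symbols have an adjusted p under 0.05, and WT against mock, and mir-6724 against mock, have unfilled symbols because they were not tested. For C352A against WT the authors' scale lies left of 0 and the other scalings right of it, while mir-7641-2 with ALA against P351A is filled and right of 0 under all 5.

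The reads of the 2 mir-7641 hairpins can also be set against each other within a library, where scaling plays no part; this ratio was added after the values were seen. There were 0.188 to 0.282 reads of mir-7641-1 for each read of mir-7641-2 in the WT libraries, 0.111 to 0.290 in mock and 0.143 to 0.242 in C352A. P351A libraries had ratios of 0.100 to 0.146, and those with ALA had 0.0516 to 0.0667. The 3 P351A + ALA libraries thus had the lowest ratios of the 15, below every P351A library, although the exact 95% counting intervals of the P351A and P351A + ALA libraries overlapped. The ratio was not tested, because it was chosen for this pattern.

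**Figure D4:**
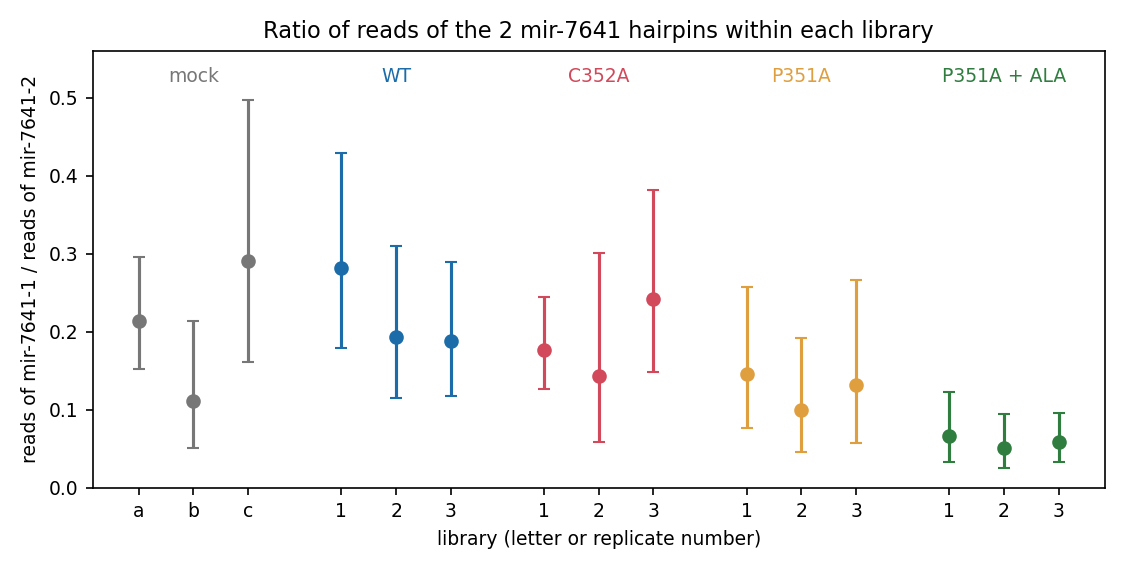
Reads of mir-7641-1 divided by reads of mir-7641-2 in each of the 15 rescue libraries; bars are exact 95% intervals that cover counting error only. The P351A + ALA libraries lie lowest, between 0.0516 and 0.0667.

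Other hairpins lie inside a 45S pre-rRNA gene rather than upstream of it. mir-3648 and mir-3687 are annotated inside the 45S pre-rRNA gene RNA45SN2, and 4 of the 4 listed hairpins of these names rose in P351A + ALA against P351A, with a median log2 fold change of 2.64. mir-3648-1 held 16.0, 13.0 and 16.1 scaled reads in P351A and 194.2, 168.8 and 49.9 in P351A + ALA, a log2 fold change of 2.90 ± 0.45 (limma, adjusted p = 5.38e-05). mir-3687-1 changed by 2.39 ± 0.36 (limma, adjusted p = 4.33e-05). The same 4 hairpins fell in P351A against mock (median -2.10), where 25.9% of all hairpins tested fell. They also fell against WT (median -1.38), where 51.2% fell. Copies of each name hold the same values, so this list holds 2 signals. This list and those that follow were chosen with earlier results of these data known. Their adjusted p-values are therefore descriptions, not independent tests.

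Among 11 listed hairpins that overlap or resemble other structural RNAs (small nuclear, nucleolar and transfer RNAs), 4 were tested. In P351A + ALA against P351A, 3 of those rose and none fell, with a median of 1.41. In P351A against WT 4 of 4 fell, as did 51.2% of all hairpins tested. mir-1246, whose sequence resembles a small nuclear RNA, held 22.9 to 28.8 scaled reads in P351A and 74.0 to 152.2 in P351A + ALA, a log2 fold change of 2.03 ± 0.32 (limma, adjusted p = 7.74e-05). Of 11 tested hairpins known to be made without the Microprocessor or cut from introns, 4 rose and 3 fell with ALA, with a median of -0.09. The 3 that fell held similar values in each library, so they are close to 1 signal. The counts of these lists with ALA are read against the 44.6% of all hairpins that rose.

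The hairpins most like mir-7641-1 across the 15 rescue libraries, by Pearson r of log2(scaled reads + 1), were mir-372 (0.889), mir-373 (0.886), mir-202 (0.884), mir-6847 (0.864) and mir-6832 (0.842), against a median of 0.12 over all hairpins. In P351A against WT the log2 fold changes of mir-372, mir-373 and mir-202 were -4.60, -11.44 and -4.63. Each of these was listed at 0 in every P351A library, so the size of its fall depends on the 1 added to each value. For mir-6724-1 the most alike hairpins were mir-6850 (0.848), mir-1275 (0.840), mir-320c-2 (0.763), mir-3928 (0.759) and mir-4466 (0.705), against a median of -0.24. For mir-7641-2, looked up after its values were seen, the closest was mir-1246 (0.950). The 2 mir-7641 hairpins had an r of 0.742 with each other, and mir-6724-1 had 0.386 with mir-7641-1 and 0.324 with mir-7641-2. These values are descriptions over libraries that share groups, depth and scaling.

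The 1 parental and 1 dCTT library have no replicate check. mir-6724 held 451.8 scaled reads in the parental library (704 reads) and 197 in the dCTT library, a ratio of 2.29 with an exact 95% interval of 1.96 to 2.70 that covers counting error only. mir-7641-2 held 88.6 (138 reads) and 25, a ratio of 3.54 with an interval of 2.30 to 5.66. All 5 members listed in that table were thus at least 2-fold higher in the parental library, as were 91.5% of the 294 hairpins listed. On the log2 scale the members lay at 1.19 and 1.78, far below the median of 5.54 over all hairpins, and 27 and 34 hairpins had a lower ratio. As a share of all hairpin reads the order was the opposite: mir-6724 made up 0.0137% in the parental library and 0.117% in dCTT, and mir-7641-2 0.00269% and 0.0148%.

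**Figure D5:**
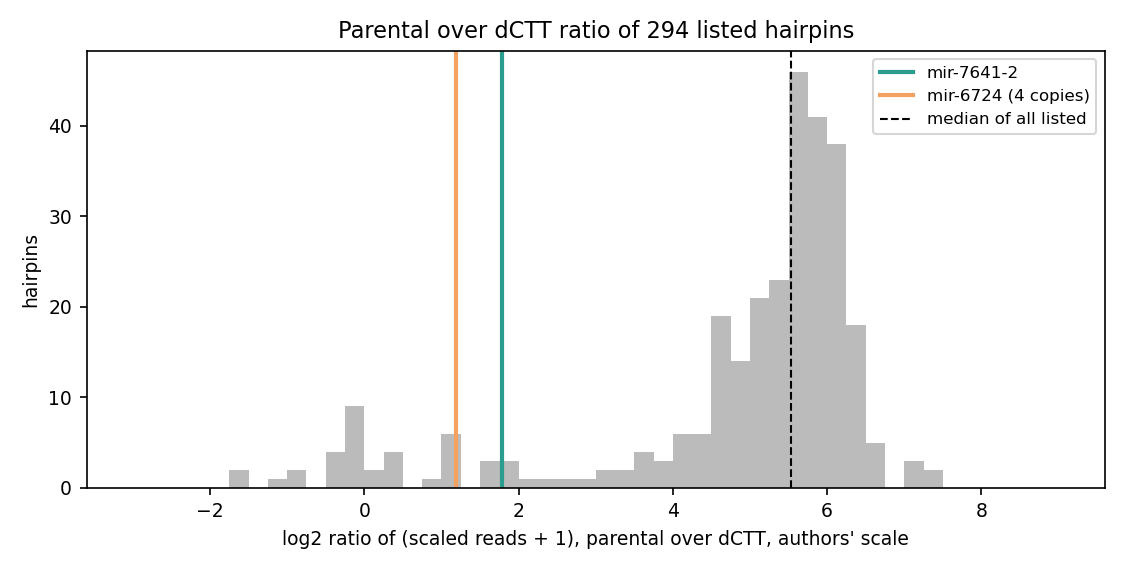
Histogram of the log2 ratio of (scaled reads + 1), parental over dCTT library, for the 294 hairpins listed, with mir-7641-2, mir-6724 and the median marked as vertical lines. The members lie at 1.78 and 1.19, to the left of the median at 5.54.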

How the data were processed

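The authors deposited 2 tables of normalised reads per hairpin, 1 for the parental and dCTT libraries and 1 for the 15 rescue libraries. Reads were processed with cutadapt 1.14 and Bowtie2 on hg38, per the submitters' processing notes. How reads were assigned to hairpins and scaled is not given in the sources used here. Values in the deposited tables are a signal, and 100% of them gave whole counts when divided by 1 factor per library (tolerance 0.001), so read counts were recovered. Levels were compared only within a table. Mock columns could not be matched to replicate numbers and are called a, b and c.

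Values were tested as log2(value + 1) with limma 3.58.1 (R 4.3.3; group means, variance trend, all 15 rescue libraries) on the 336 hairpins with a mean of at least 10, with Benjamini-Hochberg adjustment over all of them and a threshold of 0.05. Alternatives used edgeR 4.0.16 and DESeq2 1.42.0 on the recovered counts, other scalings, pseudocount and filter, 1 hairpin per name, and left-out libraries. Folds came from ViennaRNA 2.7.2, and ratio intervals are exact at 95%. The fit was checked on simulated counts with the same spread for all hairpins and known library factors. That check does not bear on the choice of scaling. Same-numbered libraries of C352A and WT deviated together (correlation 0.185 to 0.425 over 3 pairs), but so did C352A replicate 3 and WT replicate 2 (0.273). Whether the numbers mark pairs is therefore uncertain. The main fit used group only, and a replicate block was run as an alternative. In the other comparisons without mock, same-numbered libraries did not all deviate together. The text names all members, the 5 tested hairpins most like the first copy of each name, and up to 4 hairpins of each context list in list order. The members and lists were chosen with earlier results of these data known, among them the high mir-6724 level of the mock libraries, so the comparisons of mir-6724 with mock are described and not tested, although their call counts stand among the alternatives. A comparison of the mir-7641 sequences with another sequence is not reported here.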

Additional observations from a re-analysis of the deposited data

How the results depend on the processing

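The library scaling was the choice that moved most results, and its cause was not tested. It shifted the median log2 fold change of all hairpins in C352A against WT from -1.76 to -0.14 at equal totals, -0.33 under median centring, 0.11 with TMM and -0.11 with DESeq2, and in WT against mock from 1.13 to -0.27, 0.42, -0.13 and 0.11. The calls in C352A against WT, 0 higher and 220 lower, became 96 higher and 99 lower at equal totals. With TMM, calls higher and lower moved from 187 and 25 to 67 and 109 (WT against mock), 76 and 87 to 105 and 76 (P351A against mock), 166 and 30 to 80 and 98 (P351A + ALA against mock), and 11 and 172 to 137 and 60 (P351A against WT). The log2 fold changes of C352A against WT turned positive. For mir-7641-1 they were 0.94 (equal totals), 1.28 (TMM), 1.05 (DESeq2) and 0.78 (median centring, not called). In the same order they were 1.20, 1.36, 1.12 and 1.00 for mir-7641-2, and 1.58, 1.72, 1.48 and 1.38 for mir-6724. The parental over dCTT log2 ratios also reversed: at equal totals to -2.44 for mir-7641-2 and -3.08 for mir-6724, and under median centring to -2.62 and -3.21.

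Counts of members called against mock include mir-6724, whose mock level was known when the names were chosen, and support nothing. The number of members called in C352A against WT was 0 and became 6 (equal totals), 5 (median centring), 6 (TMM), 6 (DESeq2) and 1 (no variance trend), and 0 to 1 when a library was left out. Over all hairpins 220 were called in the main fit there, and 195, 208, 184, 192 and 221 in the other settings, in the same order. Without C352A replicate 3, where 1 member was called, 210 hairpins were called. In C352A against mock the number of members called was 4 and became 0 at equal totals, under median centring, with no filter, with TMM and with DESeq2. It was 0 to 4 when a library was left out. Over all hairpins there were 50 calls (2 higher, 48 lower) in the main fit and 49 at equal totals (7 and 42). The calls became 16 under median centring (13 and 3), 18 with TMM (13 and 5), 24 with DESeq2 (17 and 7) and 20 with no filter. They were 24, 23 and 23 without mock library b, mock library c or C352A replicate 1. In P351A against mock the number of members called was 6 (163 of all 336 hairpins) and became 2 under median centring (187). It was 2 to 6 when a library was left out, and 2 without mock library b (147) or P351A replicate 3 (134). In P351A against WT it was 2 and became 6 (median centring) and 5 (TMM), the added calls being mir-6724 higher while mir-7641 was lower; 142 and 197 of the 336 hairpins were called there. In P351A + ALA against P351A it was 2 and became 1 (equal totals), 5 (median centring), 5 (TMM) and 5 (DESeq2), each 5 being mir-7641-2 higher and the mir-6724 copies lower; 135, 150, 176 and 161 hairpins were called there. With 1 hairpin per name, which keeps 2 members, the counts were 1 for WT against mock, 1 for C352A against mock, 2 for P351A against mock, 2 for P351A + ALA against mock, 1 for P351A against WT and 1 for P351A + ALA against P351A; of the 277 hairpins then tested, 169, 43, 126, 159, 150 and 121 were called.

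With a replicate block, the log2 fold change of mir-7641-1 in C352A against WT was -0.65 (limma adjusted p = 0.110), and the block changed no call of a member in the 3 comparisons where it could be fitted. Blocks could not be fitted against mock. Each rescue library held 8 to 46 reads of mir-7641-1, which limits the precision of its values.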
